A study of Homo sapiens with 30 samples.

Results

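The genes described here are abundant protein-coding genes whose mRNA carried no LARP6 peak in U-87 MG cells, an established human glioblastoma line. They were chosen by measured values: at least 3000 counts in the long-RNA input library of the line expressing full-length LARP6 (FL), and no peak centred in the gene on its own strand in the FL, ΔNTR and ΔCTR peak lists. Mitochondrially encoded genes were left out, and so were symbols that start with RPL, RPS, EIF, EEF, NDUF, UQCR, COX, ATP5, PSM or COL. Of 19659 protein-coding genes, 2177 reached 3000 counts, 156 of those carried a left-out prefix, and 71 of the other 2021 had no peak. Another 1722 had an FL peak and 228 had a peak in the ΔNTR or ΔCTR list only. The share without a peak was 3.51% of the 2021 abundant genes, a count that the selection itself fixes and that is given as a description.

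LARP6 is an RNA-binding protein of the La-related family, best known for binding a stem-loop in the 5'UTR of collagen mRNAs and for association with mRNAs of ribosomal proteins. Its folded La-module pairs a La-motif with an RNA recognition motif and lies between disordered N-terminal and C-terminal regions. In iCLIP, ultraviolet light crosslinks the protein to RNA in living cells, the protein is immunoprecipitated, and the places where reverse transcription stops at the crosslink are counted. A peak is a cluster of such crosslinks, so an mRNA can be expected to yield peaks only if enough of its molecules are present and if its reads can be placed in the genome. A gene without a peak is thus one in which no cluster passed the peak caller and remained after peaks called in parental cells were subtracted. This holds for each of the lists used and is not a measurement of zero binding.

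The series holds 30 samples of 6 U-87 MG populations: parental cells, and populations carrying a doxycycline-inducible, codon-optimised myc-tagged LARP6 delivered by lentivirus. The 5 variants were FL LARP6 and forms lacking the N-terminal region (ΔNTR), the whole N-terminal domain (ΔNTD), the La-module (ΔLa-module) or the C-terminal region (ΔCTR). Doxycycline was given at 60 ng/mL for 24 h. Every population kept its own LARP6 gene, so untagged LARP6 was present beside each variant. Each variant had 3 iCLIP replicates, deposited as 1 merged peak list of summed scores from which parental peaks had been subtracted, and 1 long-RNA (paired 150-nt) and 1 small-RNA (single 50-nt) input library. With 1 list and 1 library a group there is no replicate check, and every interval below covers counting error or the spread between genes only.

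The 6 long-RNA libraries held 25027075 to 28692476 counts in genes. There were 17180 peaks for ΔNTR, 15870 for ΔCTR and 14334 for FL, and 636 and 291 for the ΔLa-module and ΔNTD variants, each with a score of at least 3. Counts of the LARP6 gene itself lay between 1398 and 1872 in the 6 libraries, parental cells included, and whether reads of the codon-optimised transgene are counted there was not tested. Of the markers examined for the labelled cell type, the mesenchymal genes VIM, CD44, FN1 and TGFBI were above 1900 CPM (counts scaled to library size by TMM) in every library. CHI3L1 was at 84.1 to 111 CPM and the neural stem marker NES at 52.0 to 57.7 CPM, whereas the glial markers GFAP and S100B stayed below 0.25 CPM, SOX2 below 0.04 CPM and OLIG2 between 1.46 and 2.54 CPM. Markers of leukocytes, epithelium, endothelium and neurons (PTPRC, EPCAM, PECAM1, RBFOX3) were below 2.5 CPM.

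HNRNPA1, a heterogeneous nuclear ribonucleoprotein that binds nascent transcripts and regulates splicing, was the most abundant mRNA without a peak. It had 21951 counts in the FL library and was the 1 gene without a peak among the 329 genes of at least 10000 counts. It was followed by CALM2, which encodes the calcium sensor calmodulin, with 9867 counts, and by OAZ1, the antizyme that targets ornithine decarboxylase for degradation, with 9348. KDELR2, a receptor that returns escaped chaperones to the endoplasmic reticulum, had 9275 counts, and the histone gene H2BC18 had 8541. SLC5A3, a myo-inositol transporter, had 7663 counts, ARL6IP1, an endoplasmic reticulum shaping protein, 7567, and the chromatin protein HMGB1 7530. The linker histone H1-3 had 7317 counts and KPNA6, an importin alpha, 7040. These 10 were the highest, 55 of the 71 genes lay between 3000 and 5000 counts, 15 from there to 10000, and 46 reached 3000 counts in all 6 long-RNA libraries.

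At the lower edge of the selection, STX16 had 3014 counts, PTPA 3103 and H2BC10 3108. Just below it, without a peak either, were HARS1 and NOP14 with 2992 counts each and BIRC2 with 2971. On the side of the peaks, 64 abundant genes had a single peak of the lowest score, 3, over the 3 lists. The most abundant of these were the RNA-binding protein gene YBX1 with 22640 counts and a ΔNTR peak, RHOA with 9753 and a ΔNTR peak, RBMX with 9648 and an FL peak, CD59 with 8338 and a ΔCTR peak, and RBM39 with 7552 and a ΔCTR peak. Requiring a score of 4 would have enlarged the group from 71 to 323 genes.

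A few peaks came close to a gene without one. A ΔNTR peak of score 3 touched the edge of OXCT1, which encodes a ketone-body enzyme of mitochondria, with its centre outside the gene. A ΔNTR peak of score 3 lay 130 nt downstream of ITGB3, an integrin subunit, and a ΔCTR peak of score 4 lay 936 nt downstream of SYNCRIP, an RNA-binding protein. On the opposite strand, a ΔCTR peak of score 3 was centred in CLCC1, a ΔCTR peak of score 3 lay outside PTPA within 1000 nt, and FL peaks of scores 8 and 11 lay outside SMARCC2 within 1000 nt, beside weaker ones of the ΔNTR, ΔCTR and ΔNTD lists. No other peak of the 3 lists used for the selection was centred in these genes on either strand.

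**Figure D1:**
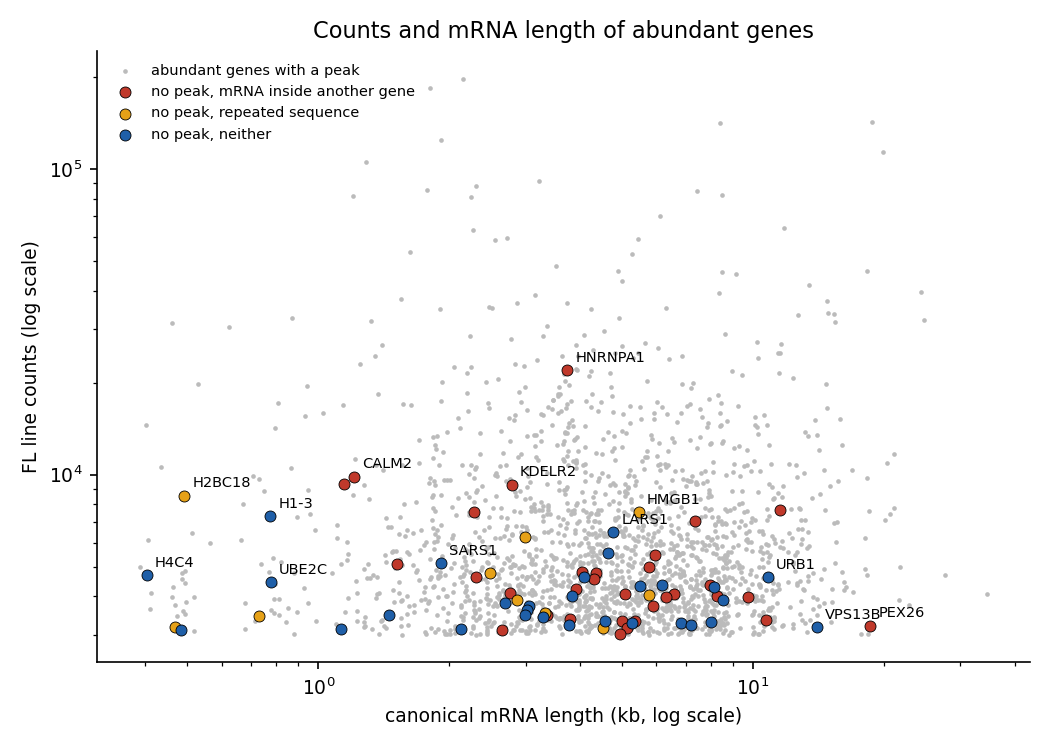
Counts in the FL long-RNA library (vertical axis, log scale) against canonical mRNA length in kb (horizontal axis, log scale) for the 2021 abundant genes. Grey points are genes with a peak, and coloured points are the 71 without one, split into 32 whose mRNA lies by at least 50% inside another same-strand gene, 10 others with at least 20% repeated 31-mers and 29 with neither. The coloured points run from 403 to 18626 nt, and 1 of them, HNRNPA1, is above 10000 counts.

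Of the features compared, the largest difference between these genes and the abundant genes with FL peaks was where they lie in the annotation. For 32 of the 71 genes (45.1%, 95% Wilson interval 34.0 to 56.6), at least 50% of the canonical mRNA fell inside the body of another protein-coding or lncRNA gene of the same strand. The same held for 12 of the 1722 genes with an FL peak (0.697%, 0.399 to 1.21), for 9 of the 228 with a peak in a deletion list only (3.95%, 2.09 to 7.33), and for 2.62% of all 2021. Of the 32 mRNAs, 17 lay wholly inside the other gene and 29 by 90% or more. The 5 most abundant with this property were HNRNPA1, CALM2, OAZ1, KDELR2 and SLC5A3. Of the genes named above with a single peak of score 3, RHOA (100%) and CD59 (99.4%) had it too, whereas YBX1, RBMX and RBM39 did not.

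The other gene was annotated as protein-coding for 26 of the 32 and as lncRNA for 6, and 23 of these partners had an identifier in place of a symbol. By name, 4 partners were read-through models that join a pair of neighbouring genes: TMED7-TICAM2 around TMED7, ZFP91-CNTF around ZFP91, STX16-NPEPL1 around STX16 and ARHGAP11A-SCG5 around ARHGAP11A. Others were named neighbours: KDELR2 lay inside DAGLB (720 FL counts), SLC5A3 inside MRPS6 (1834 counts) and SNTB2 by 91.2% inside UTP4 (2540 counts). In all 32 cases the partner had fewer FL counts than the gene itself, 18 partners had 0 counts and 26 had under 20. For most of these loci the second gene thus had few or no counted reads in this library. Reads that touch exons of both genes are not assigned to either by STAR, so counts of these 32 genes and of their partners can be too low. Low partner counts therefore do not show that a partner was not transcribed.

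The peak lists as a whole were also sparse in such sequence. None of the 14334 FL peaks had its centre at a position covered by 2 or more same-strand protein-coding or lncRNA genes, nor did any ΔLa-module or ΔNTD peak, and 2 ΔNTR peaks and 1 ΔCTR peak did. In the 71 genes the selection fixes the lack of FL, ΔNTR and ΔCTR peaks, so the density of peaks was taken from the 1950 abundant genes that had one. Their parts inside another gene summed to 137 kb of canonical mRNA and held 0 exonic peaks of any of the 5 lists, which allows up to 0.0218 peaks per kb in each. Their parts outside any other gene summed to 10653 kb of canonical mRNA. Outside such overlap these genes had 8261 exonic FL peaks, or 0.775 per kb, with 1.00 per kb for ΔNTR and 0.881 per kb for ΔCTR. Exonic peaks include those in exons of other transcripts, which the length in kb leaves out. The ΔLa-module and ΔNTD lists held 0.0238 and 0.0109 per kb there, near that limit or below it. The 12 overlapped genes that did have FL peaks, HIF1A, PTP4A2 and CDH13 among them, had 29 such peaks, and 0 of the 29 were centred where 2 genes overlap. With every annotated gene type counted, 10 FL peaks lay where genes overlap. Whether the peak caller's assignment of crosslinks to genes led to this pattern was not tested, since the crosslink positions themselves were not analysed here. For the 32 genes, a lack of binding and a lack of peaks in overlapping annotation cannot be told apart.

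**Figure D2:**
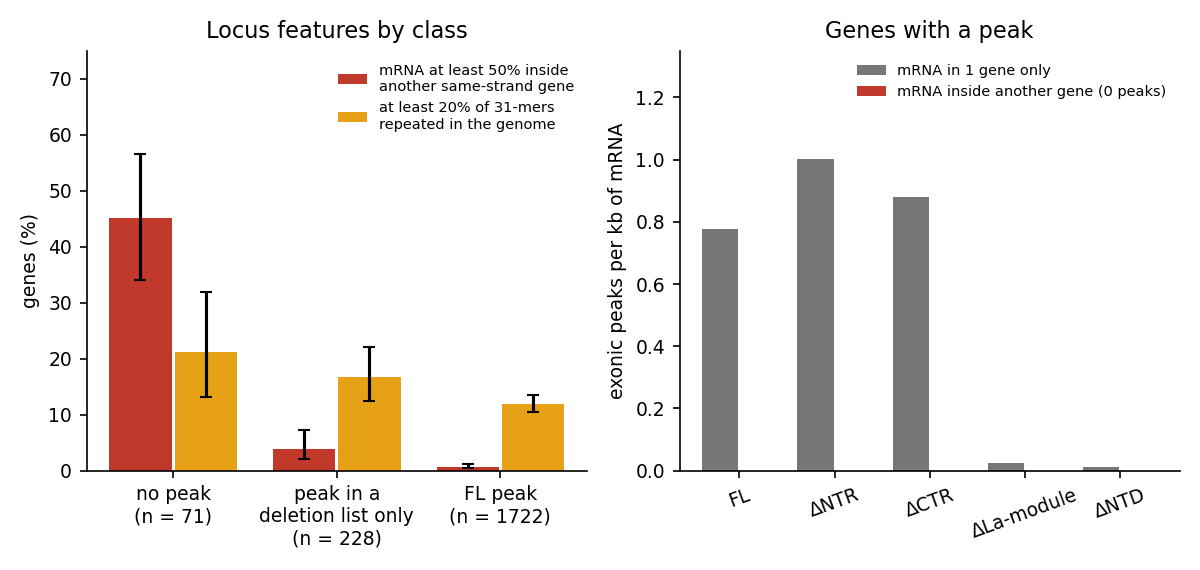
Left, the percentage of genes with at least 50% of the canonical mRNA inside another same-strand gene (red) and with at least 20% of 31-mers repeated in the genome (yellow), for genes without a peak, with a peak in a deletion list only and with an FL peak; bars show 95% Wilson intervals. Right, exonic peaks per kb of canonical mRNA of the 1950 abundant genes with a peak, for the 5 lists, in mRNA covered by 1 gene (grey) and by more (red, 0 peaks in each list). Peaks in exons of other transcripts are counted.

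The share without a peak was lower at higher counts among genes outside another gene. Among genes whose mRNA lay by less than 50% inside another gene, 76.0% of those with 100 to 299 counts had no peak, 52.4% with 300 to 999, 24.4% with 1000 to 1999 and 12.1% with 2000 to 2999. It was 3.61% (22 of 609) with 3000 to 3999 counts, 2.54% (10 of 393) from there to 5000, 1.02% (4 of 391) with 5000 to 6999 and 1.2% (3 of 250) from 7000 to 10000. Above 10000 counts 0 of 325 genes lacked a peak, which allows a share of up to 0.923%. Among genes lying by at least 50% inside another, 94.7% lacked a peak at 100 to 299 counts, 70.6% (12 of 17) at 3000 to 3999, 78.6% (11 of 14) from there to 5000, 28.6% (2 of 7) up to 7000 and 54.5% (6 of 11) from 7000 to 10000. HNRNPA1 was the 1 of 4 such genes above 10000 counts.

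**Figure D3:**
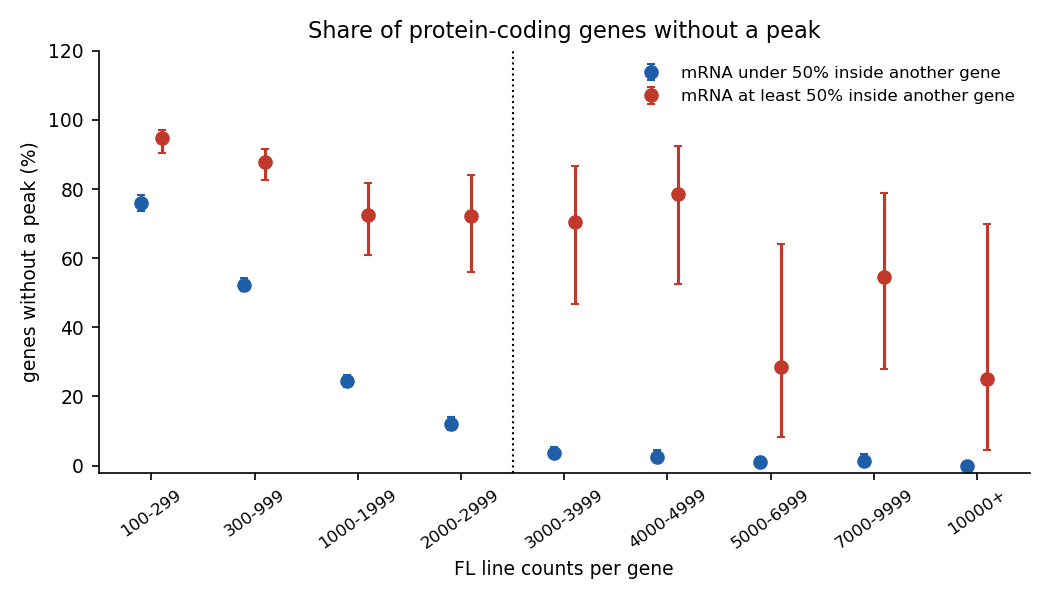
Percentage of protein-coding genes without a peak in the FL, ΔNTR and ΔCTR lists (vertical axis) by their counts in the FL long-RNA library (horizontal axis), for genes whose canonical mRNA lies by less than 50% (blue) or at least 50% (red) inside another same-strand gene. Bars show 95% Wilson intervals and the dotted line marks 3000 counts; the blue points fall from 76.0% to 0, and the red points stay at or above 25%.

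Sequence shared with other places in the genome was a second feature. A gene was set apart here if at least 20% of the 31-nt words of its canonical mRNA occur elsewhere in the genome, as in processed pseudogenes and gene families, since reads from such words may not be placed uniquely. This held for 15 of the 71 genes (21.1%, 13.2 to 32), for 204 of 1722 with an FL peak (11.8%, 10.4 to 13.5) and for 12.7% of the 2021. The interval of the 71 overlaps the others. Of the 15, 5 also lay inside another gene, among them HNRNPA1 (45.5% of words repeated), CALM2 (23.6%) and FKBP1A (50.0%), which encodes the FK506-binding prolyl isomerase. The other 10 were H2BC18 (86.4%), H3C13 (80.6%), TCAF1 (78.6%), TWF1 (78.0%), BANF1 (69.6%), GTF2I (57.9%), HMGB1 (42.1%), USP10 (38.1%), DNAJB6 (27.5%) and CACYBP (25.2%). The 204 genes with an FL peak and such a share included ACTB (47.6%), with an FL score of 2098, ITGB1 (43.3%), with 259, and RBMX (70.9%), with 3. YBX1 (49.5%), with a ΔNTR peak only, had such a share too. RBM39 (18.4%), RHOA and CD59 did not. Whether the peaks of these genes lie in repeated words was not tested.

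After both sets, 29 of the 71 genes remained, 1.69% of the 1719 abundant genes with neither feature. The most abundant were H1-3 (7317 counts), LARS1 (6501), PPP2R5C (5550), SARS1 (5144), H4C4 (4705), LRRFIP1 (4644), URB1 (4634), UBE2C (4455), MID1 (4353), TPP2 (4341), ATR (4301) and TIAL1 (4009). The 29 had a median of 3730 counts, and 25 of them were below 5000.

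Roles were assigned to the 71 genes only. The role counts here and below thus have no share over all abundant genes beside them and show no enrichment. By role, RNA processing and ribosome biogenesis held 11 of the 71 genes. HNRNPA1 and SYNCRIP, both of the heterogeneous nuclear ribonucleoprotein family, and the SR splicing factor genes SRSF1 (3324 counts) and SRSF6 (4785) all lay inside another gene, by 100%, 100%, 100% and 96.4%. The other 7 did not and had few repeated words: TIAL1, an AU-rich element binding protein; PRPF6 (3730 counts) and SNW1 (3127), spliceosome components; ZC3H13 (3287), a subunit of the m6A writer complex; ELAC2 (3229), which cleaves the 3' trailer of tRNA precursors; FBL (3125), the fibrillarin methyltransferase of small nucleolar ribonucleoproteins; and URB1, a ribosome biogenesis factor. In lists of families added after the values were seen, 2 of 18 abundant heterogeneous nuclear ribonucleoprotein genes and 2 of 9 SR factor genes had no peak, beside 3.51% of all abundant genes, and 0 of 16 and 0 of 7 once genes inside another were left out, beside 1.98%. Lists of this size would hold under 1 gene at that share.

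Histones, chromatin and transcription held another 11. Histone genes were the largest list and the one with the largest number of genes without a peak, 5 of 31 abundant members (16.1%). All 31 lay outside another gene. The share was 3.51% of all abundant genes, 1.98% of those outside another gene and 10.3% of those below 1 kb, histone genes included. Of the other 26 histone genes, 7 had a peak in a deletion list only, beside 228 of all 2021 abundant genes. H2BC18 and H3C13 were the 2 with mostly repeated sequence. H1-3, H4C4 and H2BC10 (3108 counts) were not, with 0%, 2.14% and 19.5% of words repeated. H2BC10 lay wholly inside a gene model of another type that was not counted above. So did H1-4, H2BC9, H2AC8, H2BC7 and H2AC6, which had FL peaks, and H2BC5 and H4C5, with peaks in deletion lists only. Most histone mRNAs are short, lack a poly(A) tail and end in a stem-loop. HMGB1, BANF1 (3445 counts), a DNA-bridging protein, and GTF2I (3158), a transcription factor, had repeated sequence. SMARCC2 (4084), a SWI/SNF subunit, and the zinc finger genes ZNF664 (4573) and ZFP91 (4980) lay inside another gene.

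DNA replication, repair and cell division held 10 genes at 3313 to 4455 counts. UBE2C, the ubiquitin-conjugating enzyme of the anaphase-promoting complex, ATR, the replication checkpoint kinase, CLSPN (3899), its adaptor claspin, and CDC6 (3313), which loads the replicative helicase, lay in none of the sets above. The same was true of APEX1 (3476), the abasic site endonuclease, HMMR (3620), the hyaluronan-mediated motility receptor that acts on spindles, and GTSE1 (3487), a microtubule-associated protein of S and G2 phase. KIF2A (4368) and SPAG5 (3365), both spindle proteins, and ARHGAP11A (3712) lay inside another gene. Of the lists for this role, 1 of 15 abundant DNA replication genes (6.67%) and 1 of 20 mitosis genes (5%) had no peak, CDC6 and UBE2C. The share over all abundant genes was 3.51%, and 1 gene in a list of this size is near that share.

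tRNA charging, protein folding and turnover held 9. LARS1 and SARS1 charge tRNAs with leucine and serine, and 2 of 14 abundant aminoacyl-tRNA synthetase genes had no peak (beside 3.51% of all abundant genes), with 9 carrying an FL peak. TPP2, a large cytosolic peptidase, lay in no other gene, while OAZ1, FKBP1A (5101 counts) and DCAF7 (3975), a WD40 scaffold protein, did. DNAJB6 (4760), a co-chaperone, CACYBP (3889), a ubiquitin ligase adaptor, and USP10 (3535), a deubiquitinase, had repeated sequence.

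The secretory pathway, membranes and transport held 13 genes, and 10 of these lay inside another gene. They were KDELR2, SLC5A3, ARL6IP1, ARF3 (4819 counts), a small GTPase of the Golgi, TMED7 (4223), a p24 cargo receptor, TEX261 (3479), CLCC1 (3317), PEX26 (3209), a peroxisome import factor, SLC35E1 (3164), a solute carrier, and STX16 (3014), a Golgi syntaxin. The 3 others were EDEM3 (3279), a mannosidase of endoplasmic reticulum degradation, OSBPL8 (3234), a lipid transfer protein, and VPS13B (3169), a bridge-like lipid transfer protein. Of the lists that cover this role, COPI and COPII coats and cargo receptors had 2 of 23 genes without a peak. Solute carriers had 2 of 25. All 4 lay inside another gene, and the share over all abundant genes was 3.51%. Lysosomal hydrolases and membrane proteins had 0 of 14, the translocon, signal peptidase and oligosaccharyltransferase list 0 of 17, RAB GTPases 0 of 11 and TMEM proteins 0 of 10, where the background share of 3.51% would also give under 1 gene in each.

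The 2 mitochondrial proteins were IMMT (3794 counts), the mitofilin of the inner membrane, and OXCT1 (3415), neither with overlapping or repeated sequence. Signalling, nuclear import, adhesion and cytoskeleton held the other 15, of which 9 lay inside another gene: CALM2, KPNA6, ITGB3 (5462), TPD52L2 (4621), FNIP1 (4079), SPECC1 (4019), SNTB2 (3997), APC (3346) and PTPA. TWF1 (6266), an actin monomer binding protein, and TCAF1 (4031) had repeated sequence, and PPP2R5C, a regulatory subunit of protein phosphatase 2A, LRRFIP1, MID1, a microtubule-associated ubiquitin ligase, and STK17B (3284), a kinase, had neither. Over all 32 functional lists, 17 of the 71 genes fell into a list, 21 lists had no gene without a peak, 7 had 1, 3 had 2 and only the histone list had more. No list was tested, and the lists were written with earlier results of these data known.

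Canonical mRNAs of the 71 genes were somewhat shorter than those of genes with FL peaks, by less than the interval of their median. That median was 4092 nt (quartiles 2665 and 5909) against 4753 nt (3027 and 7364), a ratio of 0.861, and the 95% order-statistic interval of the 71 genes' median, divided by the other median, ran from 0.693 to 1.07. The lengths ran from 403 nt in H4C4 to 18626 nt in PEX26. The other 4 longest were VPS13B (14011 nt), SLC5A3 (11566), URB1 (10818) and APC (10704), so long mRNAs of over 10 kb stood beside single-exon histone genes. The 71 also had lower counts within the selected range, at a median of 4019 against 5203. Within 3000 to 5000 counts the medians were 4353 nt for 55 genes and 4784 nt for 806 genes. From 5000 to 10000 counts they were 2786 nt (interval 1210 to 5456) for 15 genes and 4917 nt for 596.

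By length, the share without a peak was highest in the shortest mRNAs. It was 10.3% (7 of 68, Wilson interval 5.08 to 19.8) below 1 kb, 3.35% (6 of 179) from 1 to 2 kb, 4.07% (11 of 270) from 2 to 3 kb, 3.5% (20 of 571) from 3 to 5 kb and 2.89% (27 of 933, 2.00 to 4.18) at 5 kb or more. The intervals of the shortest and the longest bin do not overlap. The 7 below 1 kb were the 5 histone genes, BANF1 and UBE2C. The 31 abundant histone genes had a median mRNA of 493 nt, so histone genes also made up much of the 68. The share below 1 kb without histone genes was not tested. Genes with a left-out prefix, of which 11 of 156 had no peak, are not in these bins. With genes inside another left out, the shares were 10.3% below 1 kb, 1.71%, 2.3%, 1.98% and, at 5 kb or more, 1.32% (12 of 909).

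Of the parts of the mRNA, the 5'UTR differed most. The median 5'UTR of the 71 genes was 96 nt (interval 80 to 155) against 163 nt (154 to 170) in genes with FL peaks, a ratio of 0.589 (0.491 to 0.951). The coding sequence was 1611 nt (1029 to 2004) against 1811 nt (1713 to 1917), and the 3'UTR 2052 nt (1341 to 2662) against 2029 nt (1900 to 2157). The 2 kinds of locus had unlike median 3'UTRs. In the 32 genes inside another, the median 5'UTR was 99 nt (79 to 219), the coding sequence 1077 nt (747 to 1872) and the 3'UTR 2985 nt (2052 to 3842). In the other 39, these were 91 nt (72 to 167), 1740 nt (1053 to 2481) and 1206 nt (377 to 2111), so that the ratio to genes with FL peaks outside another gene was 0.557 for the 5'UTR (0.440 to 1.02) and 0.595 for the 3'UTR (0.186 to 1.04), and both intervals include 1. The equal 3'UTR length over all 71 thus joined long and short 3'UTRs.

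**Figure D4:**
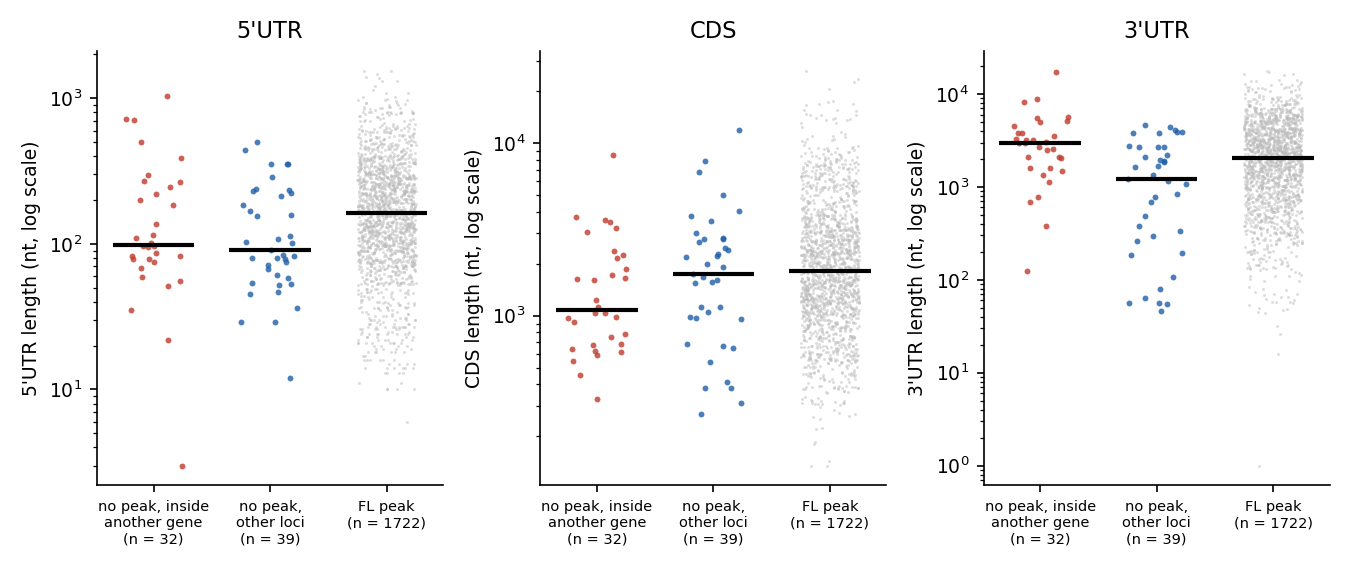
Length in nt (vertical axes, log scale) of the canonical 5'UTR, coding sequence (CDS) and 3'UTR, each point 1 gene and each black line the median, for the 32 genes without a peak that lie inside another gene (red), the other 39 without a peak (blue) and the 1722 with an FL peak (grey). The median 3'UTR is 2985 nt in red, 1206 nt in blue and 2029 nt in grey.

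Base composition differed little. Coding sequences of the 71 genes held a median of 45.4% pyrimidines (44.8 to 46.5) against 46.8% (46.6 to 46.9), and 3'UTRs 51.8% (51.2 to 52.7) against 51.6% (51.5 to 51.8). As a stand-in for membrane or signal segments, a protein was counted if any 19-residue window reached a mean Kyte-Doolittle hydropathy of 1.6. This was so for 19 of 71 (26.8%, Wilson interval 17.9 to 38.1) and for 588 of 1722 (34.1%, 31.9 to 36.4). Of the 19, 12 belonged to the secretory and membrane role, and 12 lay inside another gene. Of the 39 outside another gene, 7 had such a segment (17.9%, 8.98 to 32.7), against 34.1% (31.9 to 36.4) of 1710 genes with FL peaks. No test was made of these differences, since genes are not replicates of a condition.

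Several of these genes have relatives with peaks, though mostly at other counts. HNRNPA2B1 (24422 counts) carried FL, ΔNTR and ΔCTR scores of 23, 63 and 30 where HNRNPA1 had none at 21951, whereas HNRNPA3 (11431 counts, 47.6% repeated words) carried 0, 0 and 15. CALM3 encodes the same protein as CALM2 and carried FL, ΔNTR and ΔCTR scores of 53, 46 and 91 at 5052 counts. CALM2, with 9867 counts, was at 0 in all 5 lists, and it lies 100% inside another gene where CALM3 lies in none. HMGB2 carried FL, ΔNTR and ΔCTR scores of 49, 28 and 66 at 3496 counts, below the 7530 of HMGB1, which has 42.1% repeated words against 3.26%. ARF1 (8612 counts) carried 87, 82 and 83 where ARF3 had none, and TMED10 (14478 counts) carried 77, 83 and 85 where TMED7 had none. KDELR1, at 2588 counts and thus below the selected range, carried 9, 14 and 3, whereas KDELR2 had none at 9275. SRSF5 (3822 counts) carried 56, 64 and 30, and ITGB5 (3778 counts) 16, 14 and 9. None of these relatives lay inside another gene, whereas ARF3, TMED7, KDELR2, SRSF6 and ITGB3 did, by 96.4% to 100%. Only 0.697% of all abundant genes with an FL peak lay inside another gene, and the relatives were named after their values were seen. Whether this location goes with the lack of peaks was not tested in these pairs.

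The relatives named for genes with neither feature had peaks as well, as did all but 3.51% of the 2021 abundant genes. These relatives too were named after their values were seen. The lack of FL, ΔNTR and ΔCTR peaks in the genes they are set beside is fixed by the selection. PPP2R5E (5404 counts) carried FL, ΔNTR and ΔCTR scores of 3, 3 and 0, near the 0 of PPP2R5C (5550 counts). Of other aminoacyl-tRNA synthetases, not close relatives of SARS1, YARS1 (5203 counts) carried 31, 41 and 40 and WARS1 (4884) 40, 33 and 62, whereas SARS1 had none at 5144. IARS1 carried 39, 24 and 37 at 17334 counts, more than LARS1 with 6501.

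The linker histones offered the closest pairs. H1-2 (9694 counts, mRNA 731 nt) carried FL, ΔNTR and ΔCTR scores of 26, 7 and 16, H1-4 (5345 counts, 787 nt) 9, 4 and 9, and H1-5 (14188 counts, 797 nt) 17, 6 and 12, whereas H1-3 (7317 counts, 776 nt) was at 0. H1-3 had 0% repeated words and H1-5 1.56%. The strongest exonic FL peaks of H1-2 and H1-5 lay in the coding sequence, with scores of 18 and 6. The 30-nt windows at their centres, at chr6:26056270-26056299 and chr6:27867381-27867410 (GRCh38, minus strand), are shown 5′ to 3′ with the stretch of the H1-3 mRNA that matches each best, starting at positions 187 and 168 of that mRNA. Capitals mark bases of H1-3 that differ from the window above.
H1-2 window: atcaccaaggctgtggccgcctctaaagag
H1-3 at 187: atcaccaaggcAgtggcAgcTtctaaGgag
H1-5 window: gcccccagtctcagagctgatcaccaaggc
H1-3 at 168: AcccccagtAtcTgagctTatcaccaaggc
In both pairs 26 of 30 bases were identical, and the same windows matched the mRNAs of 13 other genes of the group by at most 18 and 20 bases. Both lie in the part that encodes the globular domain of linker histones. That H1-3 had no FL, ΔNTR or ΔCTR peak there is fixed by the selection, so a difference in binding at this stretch was not tested. The strongest FL peak of H1-4, also of score 6, lay in the 5'UTR instead, and its window matched H1-3 by 15 of 30 bases, fewer than the 18 of the best of the 13 other mRNAs. By contrast, the strongest FL window of CALM3 lay in its 3'UTR and matched CALM2 by 15 of 30 bases, fewer than the 18 reached by the best of those 13 mRNAs. H4C3 (6102 counts), which encodes the same histone H4 as H4C4, had its strongest FL peak in the 3'UTR, with 14 of 30 bases matched in H4C4, and carried a total FL score of 48.

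Some mRNAs no longer than 4092 nt, the median of the 71, carried high scores. Of the genes with FL peaks and an mRNA no longer than the median of the 71, 691 in number with a median FL score of 15 (quartiles 7 and 38.5), the highest were ACTB (2098), HNRNPH1 (720), YWHAE (620), PKM (540) and VIM (489). Their counts ran from 10758 in HNRNPH1 to 197572 in VIM, above every gene without a peak except HNRNPA1. Their mRNAs ran from 1812 nt in ACTB to 2305 nt in PKM, so none was below 1 kb.

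The ΔLa-module and ΔNTD lists were not used in the selection. No ΔLa-module peak fell in the 71 genes, which allows a share of up to 4.23%, against 230 of 1722 genes with an FL peak (13.4%, Wilson interval 11.8 to 15.0) and 12.4% of the 2021. In the ΔNTD list 1 of the 71 had a peak (1.41%, 0.249 to 7.56), against 118 of 1722 genes (6.85%, 5.75 to 8.14) and 6.19% of the 2021. The 1 gene was VPS13B, with an intronic peak of score 4. The 71 had lower counts than the genes with FL peaks, and 32 of them lay in sequence where no list had an exonic peak. Of the 39 genes outside another gene, 0 had a ΔLa-module peak, which allows up to 7.69%, and 1 a ΔNTD peak. Among genes of 3000 to 5000 counts outside another gene, 49 of 803 with an FL peak had a ΔLa-module peak (6.10%, 4.65 to 7.98), and 0 of 32 without a peak, which allows up to 9.38%, so no difference was detectable there.

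Levels of the 71 mRNAs were close to parental in all 5 lines. In the parental, FL, ΔNTR, ΔCTR, ΔLa-module and ΔNTD libraries, in that order, HNRNPA1 was at 770, 782, 652, 763, 770 and 779 CPM. CALM2 was at 347, 352, 324, 348, 349 and 381 CPM. KDELR2 was at 336, 330, 336, 335, 332 and 351 CPM. HNRNPA1 and CALM2 were lowest in the ΔNTR library, and CALM2 was highest in ΔNTD. H1-3 was at 313, 261, 232, 256.4, 247 and 271 CPM, highest in parental cells. H2BC18, another replication-dependent histone gene, was at 385, 304, 306, 322, 355 and 342 CPM, again highest in parental cells. Of the other histone genes of the group, H4C4 was also highest in parental cells. H2BC10 was at 121.4 CPM there and at 121.3 in the ΔLa-module line. H3C13 was highest in ΔNTR, at 134.5 CPM against 124.6 in parental cells. SARS1 was at 211, 183, 172, 170, 180 and 186 CPM. LARS1 was at 218, 232, 219, 240, 231 and 233 CPM, lowest in parental cells.

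On the log2(CPM + 1) scale, 0 of the 71 genes differed 2-fold or more from parental in any line, with every one of them above 10 CPM. Over all genes of at least 10 CPM in either library, 0.722% differed 2-fold or more in either direction in ΔNTR cells, 0.434% in the ΔLa-module line, 0.336% in ΔNTD, 0.0545% in ΔCTR and 0.0435% in the FL line, so that fewer than 1 such gene among 71 would be the count at the background share. The largest differences were 0.71 for SLC35E1 and 0.62 for LRRFIP1 in ΔNTR and 0.54 for LRRFIP1 and 0.52 for TWF1 in ΔNTD. SLC35E1 was at 97.8 CPM in parental and 161 in ΔNTR cells. The lowest was -0.43 for H1-3 in ΔNTR. The median over the 71 was lowest in ΔNTR, at -0.10 beside -0.02 over all genes. It lay between -0.02 and 0.02 in the other lines. The FL values share the library whose counts chose the genes.

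**Figure D5:**
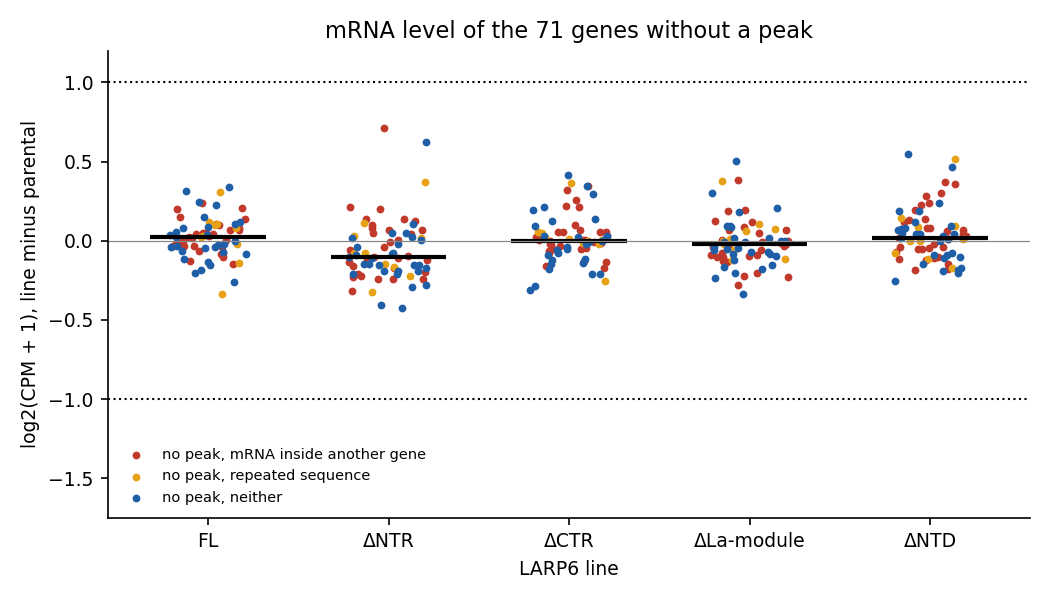
Difference of each LARP6 line from parental cells in log2(CPM + 1) (vertical axis) for the 71 genes without a peak, each point 1 gene, coloured by locus, with the median as a black line. Dotted lines mark 2-fold; no point reaches them, and the lowest median, -0.10, is that of ΔNTR.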

How the data were processed

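Per the labels and the study's methods, the authors trimmed iCLIP reads, discarded reads on rRNA and tRNA with Bowtie2, aligned the rest with STAR to GRCh38.p13 and GENCODE 42, collapsed duplicates with UMI-tools, called peaks with Clippy in each of 3 replicates, merged them with bedtools 2.30.0, summing the score, and subtracted parental peaks. The deposited score is a crosslink count that is not scaled to library depth. Input reads were trimmed with Trim Galore 0.6.10 and counted per gene by the authors with STAR 2.7.10b, giving deposited raw counts in unstranded and stranded columns. The reverse-strand column of the paired libraries was used. The depth of the iCLIP libraries themselves was not analysed here.

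Genes and canonical transcripts were taken from GENCODE 44, a later release on the same build. A peak belonged to a gene if its centre lay in the gene on the same strand, introns included. For each canonical mRNA, the share inside another same-strand protein-coding or lncRNA gene and the share of 31-nt words found elsewhere in the genome (words over a junction needed 8 nt on either side) were computed; the thresholds of 50% and 20% were set after the data were seen. CPM used edgeR 4.0.16 TMM factors, a pseudocount of 1 CPM and a minimum of 10 CPM in either library. DESeq2 1.42.0 size factors were an alternative. Intervals are 95% Wilson intervals for shares and order-statistic intervals for medians; a count of 0 was taken to allow 3. The scripts were tested on simulated data or known cases before use.

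The genes, the functional lists and the roles were chosen with earlier results of these data known. Named genes were the 10 with the highest counts, the 5 with the longest mRNA, up to 3 per list with 3 or more, those at the edges of the selection, those with a peak in the 2 lists not used, those changed 2-fold, and the 5 short genes of highest FL score; the other names, all members of the group or relatives of them, were chosen after their values were seen. No p-value is given, as each group has 1 library and 1 merged list. Proteins for the hydropathy count were translated from the canonical coding sequences. Alternatives covered the thresholds, the way peaks are assigned, transcript choice, scaling and, added after the data were seen, leaving out genes inside another gene or with repeated sequence.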

Additional observations from a re-analysis of the deposited data

How the results depend on the processing

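Of 72 alternatives to 13 values, 49 stayed within the interval of the main value (for counts, within 1.5 times it) and 23 moved; none of the values has a test. The number of genes without a peak, 71, rested on the limits chosen: it was 229 at 2000 counts, 16 at 5000, 46 with 3000 counts in all 6 libraries, 299 with the FL list only, 323 with a score of at least 4, 39 without genes inside another gene, and 29 without those or genes of repeated sequence. Its share of abundant genes, 3.51%, was 7.27%, 1.62%, 14.8%, 16%, 1.98% and 1.69% at 2000 counts, at 5000 counts, for the FL list, for a score of 4 and with the 2 sets left out. The mRNA length ratio to genes with FL peaks, 0.861, was 0.612 at a threshold of 5000 counts, 0.567 within 5000 to 10000 counts and 0.448 in the highest bin of counts per kb, and between 0.70 and 1.01 under the others, where a score of 4 brought it above 1. The 5'UTR ratio was 0.488 with both sets left out, the CDS ratio 1.12 with a score of at least 4, and the 3'UTR ratio, 1.01, became 0.595 without genes inside another gene and 0.567 with both sets left out. The difference in the share with a hydrophobic segment, -7.39 percentage points, was -21.2 among mRNAs under 2 kb. Repeated sequence marked 38% of the genes at a threshold of 10% of words and 9.86% at 50%. The cause of these shifts was not tested beyond the smaller or larger sets that each alternative makes. No paired analysis was possible because each group has 1 merged peak list and 1 library per protocol. The share of genes without a peak was lower at higher counts; the depth of the iCLIP libraries was not varied.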
